A study of Mus musculus with 15 samples.

Results

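The 39 genes described here encode receptors, adaptors, scavengers, lysosomal proteins, cytoskeletal proteins and transcription factors of macrophages and microglia, measured in the auditory nerve of mice exposed to loud noise. They were chosen by symbol with earlier results of these data known, so counts over them are descriptions and no test of the list. Each was represented by its probe set for 1 gene with the highest mean over all 15 arrays. They were 39 of 18193 genes with such a probe set, and 73 probe sets measured them. Of these genes, 37 were among the 13644 tested, and Itgam and Cd86 fell out with the dimmest 25% of genes, whose mean log2 intensity was 4.70 or lower.

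Each array held RNA from both ears of a single CBA/CaJ mouse aged 5 to 12 weeks. For 2 h the exposed mice heard a noise band that spanned 8 to 16 kHz, an octave, at a level of 106 dB SPL, and tissue was taken on the same day (immediate) or 1, 7 or 14 days later. The groups held 3 animals each, and the controls were not exposed. The cochlea was trimmed to the modiolus, the bony core that carries the nerve, so bone, marrow and blood can be present beside nerve tissue. The 3 controls were female and the 3 animals at 1 day were male, whereas the immediate, 7-day and 14-day groups each held 2 females and 1 male. Sex and the 1-day time therefore could be separated only through the males of the other noise times. The study, titled for the RNA-binding protein Quaking and loss of myelin after noise, compared each time with the controls and the times with each other.

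Macrophages live in the cochlear nerve and around the ganglion neurons, engulf dead cells and myelin, and depend on signalling through the receptor Csf1r. After injury their number can grow by entry of blood monocytes, which follow the chemokine receptor Ccr2, or by division in place. Fc receptors and Trem2 signal through the small adaptors Fcer1g and Tyrobp, which carry the activation motif called ITAM, and engulfed material ends in lysosomes that hold Cd68 and cathepsins. Several of the genes are not particular to macrophages: Ptprc, Cd52, Cd53, Coro1a and Itgb2 are expressed by most white blood cells, and cathepsins B and D by nearly all cells. In tissue RNA of this kind, fewer cells of a type and less RNA per cell cannot be told apart.

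Values are log2 intensities, and their level was not set against that of other probe sets. Schwann cell genes averaged 11.28 to 11.65 and neuronal genes 10.10 to 10.41 over the 15 arrays, so the arrays carried the labelled tissue. Array medians lay between 5.87 and 5.92. Control replicate 3 stood apart from controls 1 and 2, with a mean over neutrophil genes of 7.29 against 5.07 and 5.63, over erythroid genes of 5.73 against 4.21 and 4.28, and over bone genes of 9.65 against 8.45 and 8.46. This array was also the highest control in Ptprc, Coro1a, Cd52, Itgb2, Laptm5 and Tyrobp. Other groups varied as well. On 1-day replicate 2 the erythroid mean was 5.47, against 4.43 and 4.57 on the other 1-day arrays. On immediate replicate 3 the neutrophil mean was 6.76, against 5.28 and 6.04 on the other immediate arrays. Replicate 3 of the 7-day group was its highest array in many of the 39 genes, for example in Cd68 at 6.75 against 5.92 and 5.65.

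At 1 day after noise, 11 of the 37 tested genes were higher than in controls and 0 were lower (limma, Benjamini-Hochberg threshold of 0.05 over all genes tested). Over all 13644 genes, 1.52% were called higher and 1.66% lower. The log2 fold change was above 0 for 34 of the 37, and its median was 0.39, against -0.01 over all genes. At least a doubling was seen in 7 genes: Cd68, Ms4a6d, Cd52, Aif1, Coro1a, Ly86 and Itgb2. The other 4 that rose were Cd53, Msr1, Fcer1g and Fcgr3. By role, the calls came from 4 of 12 tested surface receptors and adhesion molecules, 3 of 8 activating receptors and adaptors, 1 of 6 scavenging genes, 1 of 6 lysosomal genes, 2 of 3 cytoskeletal genes and 0 of 2 transcription factors.

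**Figure D1:**
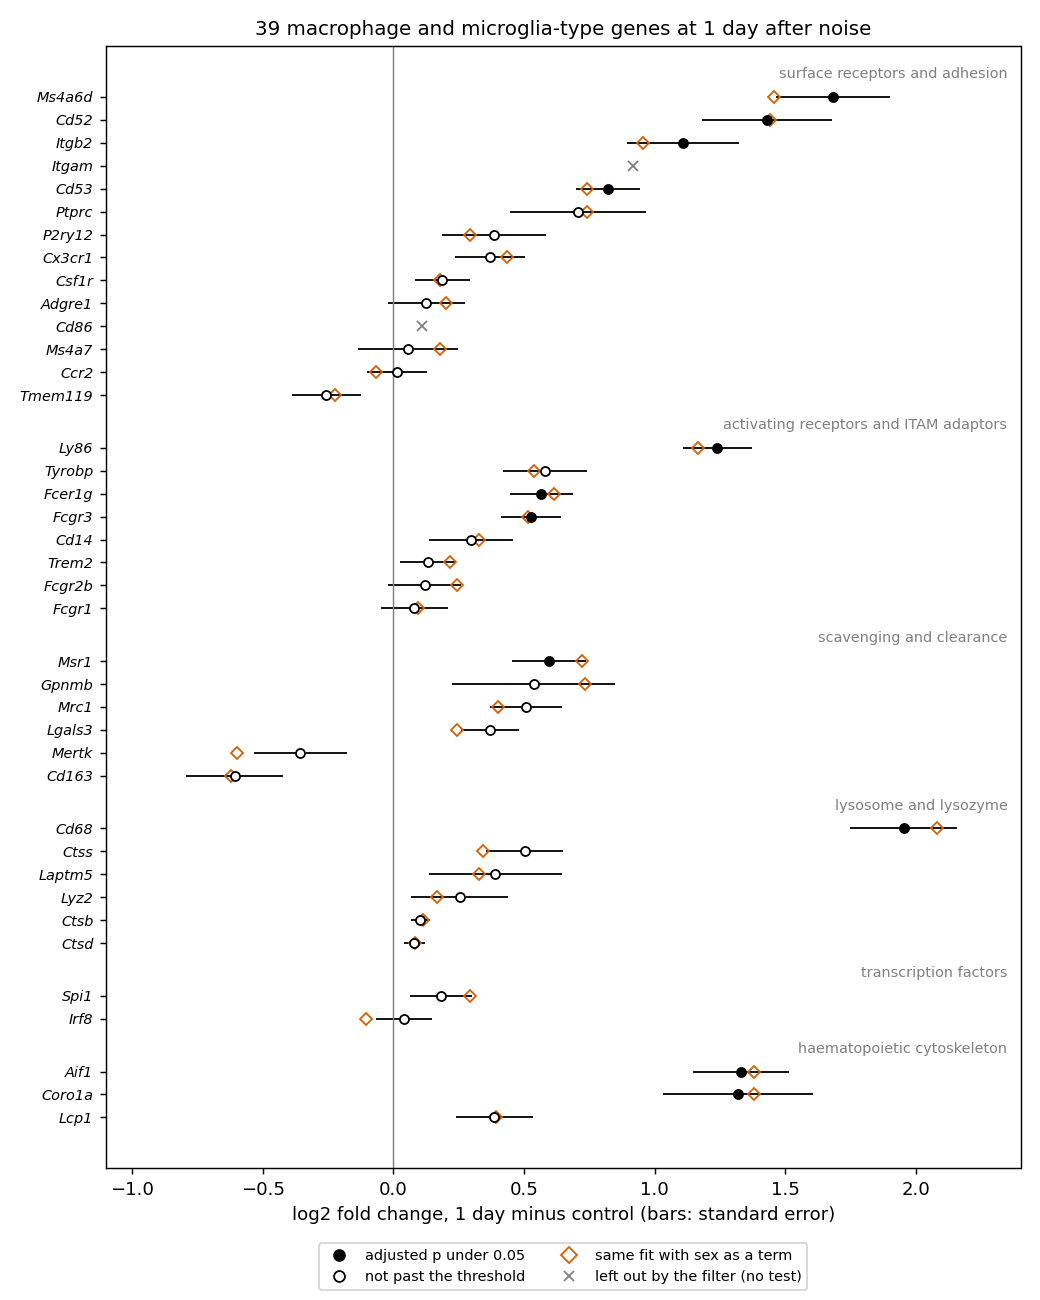
Log2 fold change of the 39 genes at 1 day against controls, ordered by role, with standard errors from limma (3 arrays each). Filled points passed the threshold, open points did not, diamonds come from the fit that includes sex, and crosses mark Itgam and Cd86, which were not tested. The 11 filled points lie between 0.53 and 1.95.

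Regulatory sequence is shown for 5 of the genes that rose, because they moved together and share expression in the myeloid lineage. PU.1, the product of the member gene Spi1, is the lineage factor of macrophages and binds the motif GAGGAA (the PU box). The sequences are the 250 bases before the annotated start of transcription, from RefSeq on build GRCm38.p6, written 5′ to 3′ on the gene's own strand, with the motif in capitals on either strand, so that TTCCTC marks it on the opposite one. The regions are chr11:69666171-69666420 (minus strand) for Cd68, chr17:35176053-35176302 (minus) for Aif1, chr3:106790150-106790399 (minus) for Cd53, chr1:171059395-171059644 (minus) for Fcgr3 and chr13:37345095-37345344 (plus) for Ly86.
Cd68: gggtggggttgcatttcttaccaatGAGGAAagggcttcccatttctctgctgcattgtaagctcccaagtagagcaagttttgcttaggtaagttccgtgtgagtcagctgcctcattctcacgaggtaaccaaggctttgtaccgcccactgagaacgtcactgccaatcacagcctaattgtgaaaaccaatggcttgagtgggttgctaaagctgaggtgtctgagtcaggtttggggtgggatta
Aif1: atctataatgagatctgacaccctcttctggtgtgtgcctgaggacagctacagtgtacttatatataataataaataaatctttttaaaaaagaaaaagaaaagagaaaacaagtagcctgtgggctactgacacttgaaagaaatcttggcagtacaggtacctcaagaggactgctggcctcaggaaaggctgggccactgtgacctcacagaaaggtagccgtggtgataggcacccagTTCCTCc
Cd53: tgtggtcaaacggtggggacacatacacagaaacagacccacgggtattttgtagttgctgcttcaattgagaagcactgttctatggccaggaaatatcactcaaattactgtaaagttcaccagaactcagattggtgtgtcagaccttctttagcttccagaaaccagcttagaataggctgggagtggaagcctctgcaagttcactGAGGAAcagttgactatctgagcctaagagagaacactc
Fcgr3: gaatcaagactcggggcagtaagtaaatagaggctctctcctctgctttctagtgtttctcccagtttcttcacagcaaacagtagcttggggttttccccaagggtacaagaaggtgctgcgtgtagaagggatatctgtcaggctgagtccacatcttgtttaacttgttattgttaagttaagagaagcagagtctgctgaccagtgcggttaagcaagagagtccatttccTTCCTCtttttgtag
Ly86: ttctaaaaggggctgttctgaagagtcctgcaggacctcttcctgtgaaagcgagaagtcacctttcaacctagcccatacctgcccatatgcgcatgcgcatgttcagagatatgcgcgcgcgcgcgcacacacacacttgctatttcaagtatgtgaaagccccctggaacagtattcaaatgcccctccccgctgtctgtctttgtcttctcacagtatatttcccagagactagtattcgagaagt
The motif began 225 bases before the start in Cd68, 7 in Aif1, 39 in Cd53 and 15 in Fcgr3, and these letters did not occur in the window of Ly86. Upstream sequence was held for 27 of the 39 genes, and 11 of these contained the motif. It was in 4 of the 7 genes that rose and had a sequence, where Coro1a and Fcer1g also lacked it. Over all 27025 genes with a promoter in the table, 25.9% had it. A match of letters is a description and does not show binding.

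Among lysosomal genes Cd68, a membrane glycoprotein of phagocyte lysosomes, had log2 intensities of 7.89, 7.84 and 7.85 at 1 day, against 5.63, 6.10 and 5.99 in controls. The groups did not overlap, and the 1-day arrays had an SD of 0.03 (n = 3). Its log2 fold change was 1.95 ± 0.20 (SE), or 3.87-fold, with an adjusted p of 0.000574. It lay between 5.96 and 6.10 immediately after noise, between 5.65 and 6.75 at 7 days and between 6.05 and 6.34 at 14 days. Cathepsin S (Ctss), a protease of antigen-presenting cells, had 9.64, 9.74 and 9.79 at 1 day, against 9.27, 9.28 and 9.11 in controls. Those arrays did not overlap either, but the difference of 0.50 ± 0.15 missed the threshold (adjusted p = 0.0779). Lysozyme (Lyz2) had 9.43, 9.35 and 9.64 at 1 day, against 8.90, 9.49 and 9.27 in controls, with overlap and an adjusted p of 0.518. The broadly expressed cathepsins B and D differed by 0.10 ± 0.04 (adjusted p = 0.130) and 0.08 ± 0.04 (adjusted p = 0.310), and the lysosomal membrane protein Laptm5 by 0.39 ± 0.25 (adjusted p = 0.458). Of 15 tested lysosomal genes outside the 39, 2 rose: cathepsin C (Ctsc) by 0.90 ± 0.12 (adjusted p = 0.00152) and legumain (Lgmn) by 0.24 ± 0.05 (adjusted p = 0.0243), and the median over the 15 was 0.04. As the mean over its probe sets Ctsc gave 0.34 (adjusted p = 0.0858). Lgmn did not pass with sex as a term (adjusted p = 0.190), among males alone (adjusted p = 0.186) or when any single control, or 1-day array 2 or 3, was left out.

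Among surface molecules, Ms4a6d, a membrane protein that spans the membrane several times, had 5.81, 6.28 and 6.03 at 1 day, against 4.76, 4.07 and 4.24 in controls. The difference was 1.68 ± 0.22 (adjusted p = 0.00151). Its means were 4.36 in controls, 4.66 immediately, 6.04 at 1 day, 4.53 at 7 days and 4.37 at 14 days, so Ms4a6d passed the filter through its 1-day arrays alone. The other 36 tested genes were above the filter level in more than 1 group, and 10 of them rose at 1 day against controls, or 3 with sex as a term. Cd52, a small anchored glycoprotein of white blood cells, had 7.25, 7.48 and 7.63 at 1 day, against 5.48, 6.02 and 6.57 in controls. The controls were spread over more than 1 log2 unit without reaching the 1-day arrays, and the difference was 1.43 ± 0.25 (adjusted p = 0.00785). Itgb2, the beta chain of the white-cell integrins, had 6.31, 6.49 and 6.42 at 1 day, against 4.86, 5.26 and 5.77 in controls, a difference of 1.11 ± 0.21 (adjusted p = 0.0138). Its partner Itgam (CD11b), which was not tested, had 4.69, 5.16 and 5.63 at 1 day, against 3.93, 4.30 and 4.50 in controls. With no filter on low values the adjusted p of Itgam was 0.0641. The tetraspanin Cd53 had 6.99, 7.17 and 7.03 at 1 day, against 6.31, 6.16 and 6.26 in controls, and rose by 0.82 ± 0.12 (adjusted p = 0.00292). Ptprc, the phosphatase CD45 carried by all white blood cells, had 6.54, 6.87 and 6.52 at 1 day, against 5.37, 5.75 and 6.69 in controls. The groups overlapped through control replicate 3, and the difference was 0.71 ± 0.26 (adjusted p = 0.158).

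Receptors used to mark tissue macrophages, microglia and monocytes did not pass the test. Csf1r, the receptor for Csf1 and Il34, had 9.71, 9.70 and 9.70 at 1 day, against 9.50, 9.46 and 9.59 in controls, a difference of 0.19 ± 0.11 (adjusted p = 0.384). Cx3cr1, the fractalkine receptor, had 6.74, 6.73 and 6.76 at 1 day, against 6.34, 6.46 and 6.32 in controls, a difference of 0.37 ± 0.13 (adjusted p = 0.154). For both genes the 1-day arrays lay above the controls without overlap. P2ry12, a purine receptor of resting microglia, had 6.23, 6.32 and 6.40 at 1 day, against 5.81, 6.33 and 5.65 in controls (adjusted p = 0.328). Tmem119, a membrane protein used to mark microglia, had 6.66, 6.49 and 6.81 at 1 day, against 6.94, 6.69 and 7.10 in controls (adjusted p = 0.333). These pairs of groups overlapped. The monocyte receptor Ccr2 had 5.58, 5.68 and 5.93 at 1 day, against 5.69, 5.72 and 5.74 in controls, a difference of 0.01 ± 0.11 (adjusted p = 0.972). This result rests on the brightest probe set of Ccr2, with a mean of 5.71 over all arrays. Its other probe sets had means of 3.07, 2.95 and 3.79, below the filter level, and were not tested. Adgre1, an adhesion receptor widely used to stain mouse macrophages, differed by 0.13 ± 0.15 (adjusted p = 0.713) and Ms4a7 by 0.06 ± 0.19 (adjusted p = 0.920). A wider microglia list had 0 of 9 tested genes called, with a median of 0.03, and a monocyte list 0 of 4, with a median of 0.05.

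Among activating receptors and their adaptors, Ly86 (MD-1), the secreted partner of the receptor Cd180, had 8.62, 8.58 and 8.57 at 1 day, against 7.31, 7.45 and 7.29 in controls. The difference was 1.24 ± 0.13 (adjusted p = 0.000574), and the lowest 1-day array, at 8.57, stood above the highest of the other 12, at 7.90. The adaptor Fcer1g had 7.70, 7.78 and 7.69 at 1 day, against 6.98, 7.15 and 7.34 in controls, a difference of 0.57 ± 0.12 (adjusted p = 0.0217). The activating IgG receptor Fcgr3 had 7.39, 7.37 and 7.41 at 1 day, against 6.88, 6.79 and 6.92 in controls, a difference of 0.53 ± 0.12 (adjusted p = 0.0248). The calls of Fcer1g and Fcgr3 ended with sex as a term. Both also ended when control 1, control 2, or 1-day array 2 or 3 was left out. That of Fcgr3 ended without control 3 and among males alone as well. The adaptor Tyrobp (DAP12) had 8.26, 8.21 and 8.29 at 1 day, against 7.49, 7.49 and 8.04 in controls, and its 0.58 ± 0.16 missed the threshold (adjusted p = 0.0619). It passed without control replicate 3 and 7-day replicate 3, at 0.76 (adjusted p = 0.00681). Trem2, the lipid receptor that pairs with Tyrobp, differed by 0.13 ± 0.11 (adjusted p = 0.569), the inhibitory Fcgr2b by 0.12 ± 0.14 (adjusted p = 0.715) and the endotoxin co-receptor Cd14 by 0.30 ± 0.16 (adjusted p = 0.359). Fcgr1, the high-affinity IgG receptor, gave 0.08 ± 0.13 on its brighter probe set, whereas a dimmer one gave 1.08 (adjusted p = 0.0179), with means of 5.45 at 1 day and 4.37 in controls. The difference between these probe sets was not tested.

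Among scavenging genes, Msr1, the class A scavenger receptor, had 6.15, 6.27 and 6.66 at 1 day, against 5.91, 5.84 and 5.54 in controls, a difference of 0.60 ± 0.14 (adjusted p = 0.0361). Without control replicate 3 and 7-day replicate 3 that difference was 0.485 (adjusted p = 0.152) and was not called. Dimmer probe sets of Msr1 gave 1.00 (adjusted p = 0.0041) and 1.32 (adjusted p = 0.00126). The mannose receptor Mrc1 (CD206) had 7.19, 7.32 and 7.33 at 1 day, against 6.70, 6.67 and 6.95 in controls. The groups did not overlap, and its 0.51 ± 0.14 missed the threshold (adjusted p = 0.0586). Cd163, the scavenger receptor for haemoglobin bound to haptoglobin, lay the other way, with 4.43, 4.34 and 4.54 at 1 day, against 5.11, 4.72 and 5.30 in controls. That difference, -0.61 ± 0.19, also missed the threshold (adjusted p = 0.0884), and the 1-day arrays were below the filter level. The sugar-binding protein Lgals3 had 7.71, 7.74 and 7.62 at 1 day, against 7.22, 7.34 and 7.40 in controls (0.37 ± 0.11, adjusted p = 0.0845). Mertk, a receptor for dying cells, differed by -0.36 ± 0.18 (adjusted p = 0.310). Gpnmb, a glycoprotein of both macrophages and pigment cells, had 4.98, 6.50 and 5.00 at 1 day, so that a single array carried its mean; the same array had the highest mean over melanocyte genes, 6.28, against 5.44 and 5.35 on the other 1-day arrays.

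Among cytoskeletal genes, Aif1, which encodes the Iba1 protein used to stain microglia and macrophages, had 6.42, 6.51 and 6.80 at 1 day, against 5.08, 5.51 and 5.15 in controls. The difference was 1.33 ± 0.18 (adjusted p = 0.00186). The actin regulator Coro1a had 7.18, 7.43 and 7.29 at 1 day, against 5.46, 5.74 and 6.74 in controls, a difference of 1.32 ± 0.29 (adjusted p = 0.0233). Control replicate 3 widened the spread of Coro1a. Without it and 7-day replicate 3, a setting chosen after the data were seen, the difference was 1.70 (adjusted p = 0.00223). The call of Coro1a ended with sex as a term (adjusted p = 0.121). It also ended when control 1, control 2, or 1-day array 2 or 3 was left out. The actin bundler Lcp1 had 7.11, 7.43 and 7.16 at 1 day, against 6.84, 6.64 and 7.06 in controls, and missed the threshold (0.39 ± 0.15, adjusted p = 0.172). The transcription factors Spi1, at 0.18 ± 0.12 (adjusted p = 0.453), and Irf8, at 0.04 ± 0.11 (adjusted p = 0.895), did not pass the test.

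**Figure D2:**
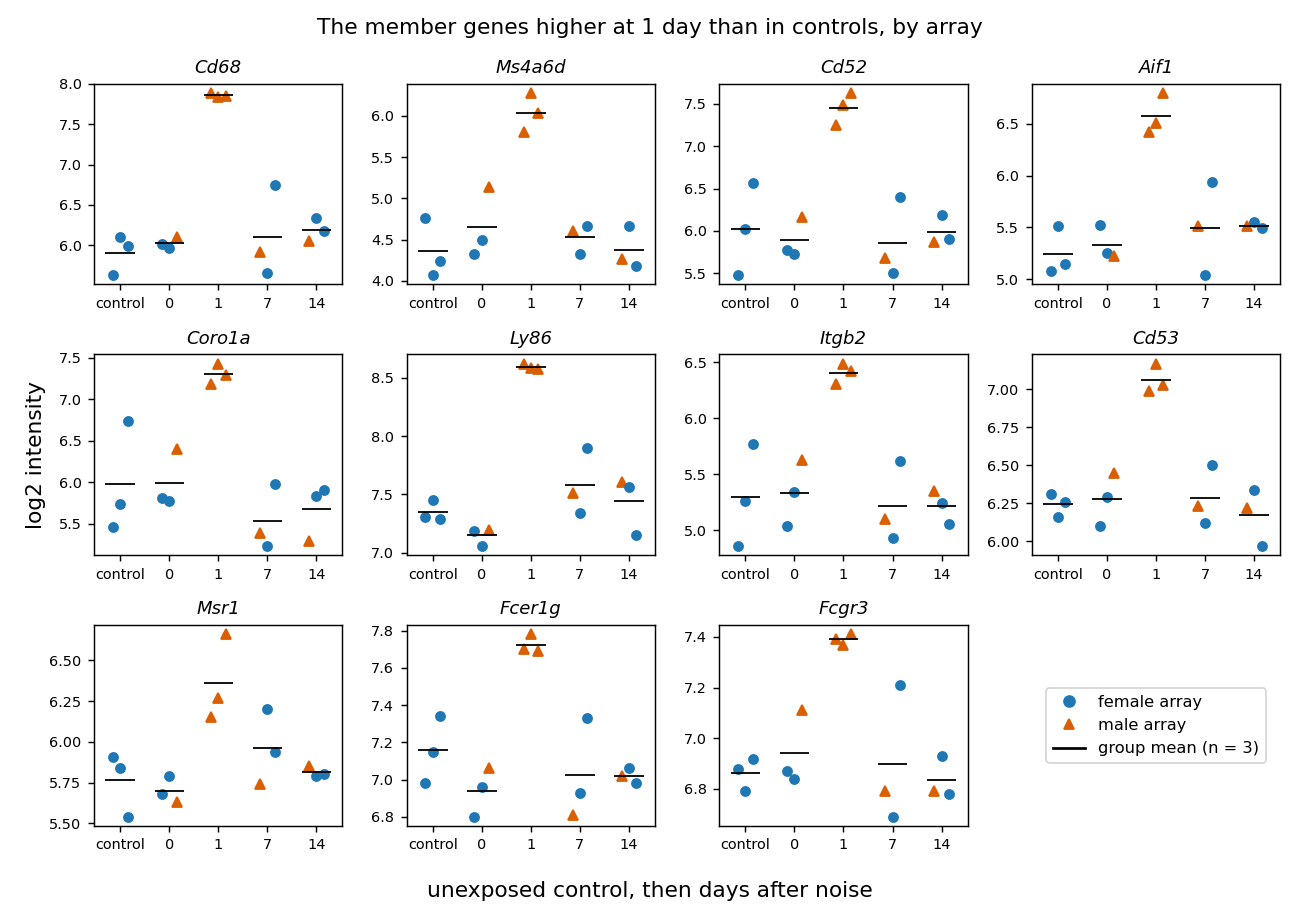
Log2 intensity (vertical axis) of the 11 genes that rose at 1 day, for controls and for 0 (immediate), 1, 7 and 14 days after noise; circles are females, triangles males and lines the means of 3 arrays. In each panel the 1-day arrays lie above all 3 controls, and in Cd68 they sit between 7.84 and 7.89.

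Without regard to the test, the 3 arrays at 1 day lay above all 3 controls in 20 of the 37 genes, against 10.1% of all genes, and below them in 1, Cd163, against 12.5%. They lay above all 12 other arrays in 16 of the 37 genes, against 2.63% of all genes, and below them in 0, against 3.87%. The 3 males at 1 day exceeded the males of the other 3 noise times in 23 of the 37 genes, against 9.29% of all genes. Ms4a6d, which passed the filter through its 1-day arrays alone, is counted among the 20, the 16 and the 23.

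Sex was examined in 2 ways, since it differed between the 1-day and control groups. With sex as a term in the fit, 4 of the 37 genes were called higher at 1 day than in controls, Cd68, Ly86, Ms4a6d and Aif1, against 0.279% of all genes. Adjusted p in that fit was 0.0101 for Cd68, 0.0151 for Ly86, 0.0342 for Aif1 and 0.0412 for Ms4a6d, and the fold changes of these genes were 2.08, 1.17, 1.38 and 1.46 on the log2 scale. When the 3 males at 1 day were set against the 3 males of the immediate, 7-day and 14-day times, a comparison added after the data were seen, 12 genes were called higher and 0 lower, against 0.836% of all genes called higher and 1.02% lower. Of these, 9 were also called against controls. Ms4a6d, which passed the filter through its 1-day arrays alone, is counted among the 12 and the 9. Cd68 was 1.84 ± 0.09 higher in that comparison (adjusted p = 4.47e-05), Ly86 1.15 ± 0.11 (adjusted p = 0.00331) and Cd52 1.55 ± 0.15 (adjusted p = 0.00331). Tyrobp, Ctss and Mrc1 were called there and not against controls, while Fcgr3 and Msr1 were called against controls and not there, with adjusted p of 0.0543 and 0.0641.

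The count of 11 at 1 day also moved with single arrays. Leaving out control replicate 2 gave 7 calls, leaving out 1-day replicate 2 gave 6, and leaving out 1-day replicate 3 gave 7. The calls of Cd68, Ly86, Ms4a6d, Aif1, Cd52 and Cd53 held without each array in turn.

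Ligands of these receptors were followed as a list of 10 genes, of which 3 rose at 1 day against controls. Ccl12, a mouse chemokine that acts on Ccr2, averaged 8.06 ± 0.94 at 1 day and 4.45 ± 0.28 in controls (SD, n = 3 each), a log2 fold change of 3.62 ± 0.41 (adjusted p = 0.000876). Ccl2, the main ligand of Ccr2, had 5.44, 5.87 and 5.73 at 1 day, against 4.32, 4.72 and 4.54 in controls, and rose by 1.15 ± 0.28 (adjusted p = 0.0399). The groups did not overlap, although with sex as a term the adjusted p of Ccl2 was 0.335. Immediately after noise Ccl2 had 5.04, 5.11 and 6.53, and by 7 days it was between 4.54 and 4.56. Ccl7, a related chemokine, rose by 0.94 ± 0.21 (adjusted p = 0.0258). It was 0.52 with sex as a term (adjusted p = 0.298) and 0.48 among males alone (adjusted p = 0.392), where Ccl2 was 0.53 (adjusted p = 0.617). The calls of Ccl2 and Ccl7 each ended when any single control, or 1-day array 2 or 3, was left out, and the control means of all 3 chemokines lay below the filter level. The growth factors did not pass the test: Csf1 had 7.49, 7.40 and 7.52 at 1 day, against 7.50, 7.54 and 7.53 in controls, and Il34 had 6.31, 6.17 and 6.29 at 1 day, against 6.43, 5.90 and 5.92 in controls. Fractalkine (Cx3cl1) had 7.02, 7.26 and 7.20 at 1 day, against 6.83, 6.98 and 7.07 in controls, with overlapping groups.

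Other genes of macrophage signalling formed a list of 46, with 30 tested. Of these 30 genes for kinases, oxidase subunits, Toll-like receptors and transcription factors, 0 were called at 1 day against controls, and their median was 0.18. A list of resident tissue macrophage genes had 0 of 7 called (median 0.25), and a list of genes of macrophages at sites of damage 0 of 7 (median 0.37). Neutrophil genes had 0 of 8 called, with a median of -0.53, and their mean over the list lay between 5.43 and 5.81 at 1 day, against 5.07 to 7.29 in controls. Markers of T and NK cells (3 tested), B cells (3), mast cells (2), dendritic cells (2), osteoclasts (2), melanocytes (5) and erythroid cells (3) had 0 called at 1 day against controls. Bone genes had 2 of 8 lower, Ibsp by -1.72 ± 0.43 (adjusted p = 0.0426) and Dmp1 by -0.81 ± 0.19 (adjusted p = 0.0333). Without control replicate 3 they were -1.14 (adjusted p = 0.155) and -0.62 (adjusted p = 0.149), and among males alone -0.87 (adjusted p = 0.314) and -0.52 (adjusted p = 0.318). Schwann cell genes had 2 of 7 lower, the myelin enzyme Cnp by -0.24 ± 0.04 (adjusted p = 0.00783) and the myelin protein Ncmap by -0.32 ± 0.07 (adjusted p = 0.0329), with a median of -0.01. Neuronal genes had 1 of 10 higher, the ubiquitin hydrolase Uchl1, by 0.53 ± 0.08 (adjusted p = 0.00427). With sex as a term Cnp was called (adjusted p = 0.0456), whereas Ncmap (adjusted p = 0.0996), Uchl1 (adjusted p = 0.0661), Ibsp (adjusted p = 0.148) and Dmp1 (adjusted p = 0.0822) were not. Among males alone Uchl1 was 0.24 (adjusted p = 0.158) and Ncmap -0.18 (adjusted p = 0.243). The part of these lists in the change of the 11 genes was not tested.

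**Figure D3:**
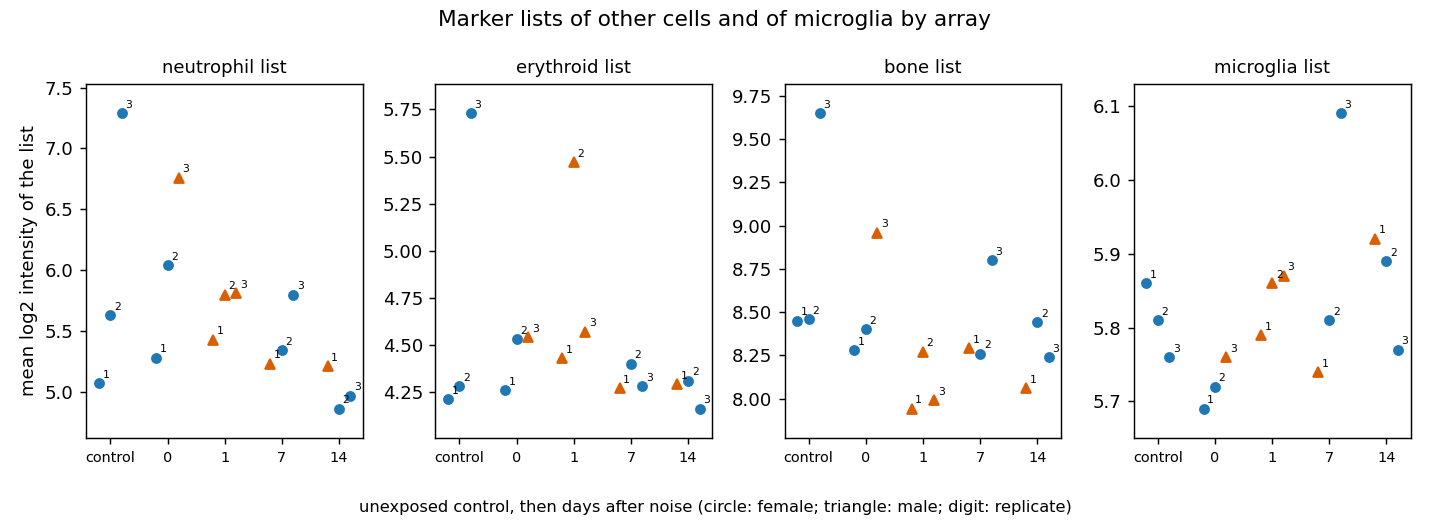
Mean log2 intensity over the neutrophil, erythroid, bone and microglia lists on each array (vertical axes differ), for controls and for 0, 1, 7 and 14 days after noise; circles are females, triangles males, and digits give the replicate. Control replicate 3 is the highest of the 15 arrays in the first 3 lists, at 7.29, 5.73 and 9.65.

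Immediately after noise, 0 of the 37 genes were called against controls, where 0.931% of all genes were. At an unadjusted threshold of 0.05, 0 were higher and 3 lower: Tmem119 by -0.35 ± 0.13, Mertk by -0.42 ± 0.18 and Cd163 by -0.40 ± 0.19, with adjusted p of 0.224, 0.271 and 0.321. How many of all genes passed this unadjusted threshold was not counted, so the 3 are named without a reference. The median over the 37 was -0.09, against -0.02 over all genes. Immediate arrays lay below all controls in 4 genes, against 12.3% of all genes, and above them in 0, against 8.86%. Of the other macrophage genes, the transcription factor Cebpb was called, at 10.89 ± 0.33 immediately and 9.41 ± 0.34 in controls (SD, n = 3 each). The difference was 1.48 ± 0.24 (adjusted p = 0.00987). This call ended among females alone (adjusted p = 0.0769) and without immediate replicate 3 (adjusted p = 0.0682), the male of that group.

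Between the immediate time and 1 day, 17 of the 37 genes were higher at 1 day and 0 lower, where 4.02% of all genes were higher and 4.38% lower. Of the 36 genes above the filter level in more than 1 group, 16 were higher, or 11 with sex as a term. The median over the 37 was 0.46, against 0.01 over all genes. The 11 genes that rose against controls were among the 17, and the other 6 were Ctss, Tyrobp, Mrc1, Lcp1, Csf1r and Ctsb. Ctss had 9.64, 9.74 and 9.79 at 1 day, against 8.61, 9.10 and 9.01 immediately, a difference of 0.82 ± 0.15 (adjusted p = 0.00529). Csf1r had 9.71, 9.70 and 9.70 at 1 day, against 9.18, 9.45 and 9.40 immediately, and its 0.36 ± 0.11 was close to the threshold (adjusted p = 0.0486). That call ended in 11 of the 15 fits that left out an array, and with sex as a term or no filter on low values. For Mrc1 the values were 7.19, 7.32 and 7.33 at 1 day, against 6.60, 6.53 and 6.82 immediately (0.63 ± 0.14, adjusted p = 0.0137). Ctsb had 12.13, 12.13 and 12.15 at 1 day, against 11.98, 12.04 and 11.98 immediately (adjusted p = 0.0301), and its call ended in 5 of the 15 fits that left out an array and in 6 of 10 other settings. These 4 genes showed no overlap between the times. The calls of Cd68, Ly86, Ms4a6d, Aif1, Cd52, Cd53, Itgb2, Fcer1g, Ctss and Tyrobp held without each array in turn. The filter was again that of all 15 arrays, which Ms4a6d passed through its 1-day arrays alone. With sex as a term 12 of the 37 were higher, against 1.86% of all genes, and without 1-day replicate 2 there were 11. Of the other macrophage genes, 7 of 30 were higher at 1 day than immediately, with the largest changes in Tlr2 (0.70 ± 0.15, adjusted p = 0.0136), Tlr7 (0.66 ± 0.11, adjusted p = 0.00407) and Alox5ap (0.63 ± 0.14, adjusted p = 0.0167), and Cebpb was lower (-0.91 ± 0.24, adjusted p = 0.0321). Other lists had few calls at 1 day against the immediate time. Higher were the ligand Ccl12 by 3.22, the protease Ctsc by 0.84, the microglial gene Fcrls by 0.56 and the receptor Axl by 0.48 (adjusted p = 0.000616, 0.00114, 0.0315 and 0.0324). In this order they were 1 of 10 tested ligands, 1 of 15 lysosomal, 1 of 9 microglia and 1 of 7 damage-site macrophage genes. The medians of these lists were 0.20, 0.09, 0.12 and 0.35. Lower were Dmp1 of bone by -0.86, the dendritic cell receptor Flt3 by -0.42, Cnp by -0.19 and the myelin protein Mal by -0.18 (adjusted p = 0.0146, 0.00877, 0.0126 and 0.0340). They were 1 of 8 tested bone, 1 of 2 dendritic cell, 1 of 7 Schwann cell and 1 of 8 oligodendrocyte genes. Here the list medians were -0.40, -0.375, -0.15 and -0.15. Of 10 neuronal genes 2 were higher, Prph by 0.45 and Uchl1 by 0.32, and 3 lower, led by the neurofilament Nefm at -0.45 (adjusted p = 0.0172, 0.0311 and 0.0211). With sex as a term Axl, Uchl1, Nefm and Alox5ap were not called. Of the genes named from these lists, Ccl12, Ctsc, Flt3 and Tlr7 kept their calls without each array in turn, and Ctsc lost its call as the mean over probe sets.

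From 1 day to 7 days, 15 of the 37 genes were lower at 7 days and 0 higher, where 4.22% of all genes were lower and 5.13% higher. Of the 36 genes above the filter level in more than 1 group, 14 were lower. The median over the 37 was -0.42, against 0.02 over all genes. Coro1a had 5.39, 5.23 and 5.98 at 7 days, against 7.18, 7.43 and 7.29 at 1 day, a difference of -1.77 ± 0.29 (adjusted p = 0.00276). For Cd68 the values were 5.92, 5.65 and 6.75 at 7 days, against 7.89, 7.84 and 7.85 at 1 day (-1.75 ± 0.20, adjusted p = 0.000645). The groups did not overlap in either gene, and the highest 7-day array was replicate 3 in both. Besides 10 of the 11 genes that rose at 1 day, Lcp1, Lyz2, Tyrobp, Ctss and Lgals3 were lower at 7 days. Msr1 had 5.74, 6.20 and 5.94 at 7 days, against 6.15, 6.27 and 6.66 at 1 day. On this probe set it missed the threshold (-0.40 ± 0.14, adjusted p = 0.0890). The dimmer probe sets of Msr1 named above gave -0.89 (adjusted p = 0.00355) and -1.39 (adjusted p = 0.000445) between these times, in the fit over all probe sets. Lcp1 had 6.27, 6.51 and 6.68 at 7 days, against 7.11, 7.43 and 7.16 at 1 day, and lysozyme had 8.71, 8.58 and 9.25 at 7 days, against 9.43, 9.35 and 9.64 at 1 day. The call of lysozyme (-0.63, adjusted p = 0.0469) ended in 10 of the 15 fits that left out an array and in 7 of 10 other settings. The calls of Cd68, Ly86, Ms4a6d, Aif1, Cd52, Cd53, Itgb2, Fcer1g, Coro1a and Lcp1 held without each array in turn. Here too the filter was that of all 15 arrays, which Ms4a6d passed through its 1-day arrays alone. With sex as a term 10 of the 37 were lower, Ms4a6d among them, against 1.30% of all genes.

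The ligands Ccl12, Ccl2 and Ccl7 were lower at 7 days than at 1 day, by -3.25, -1.13 and -0.87 (adjusted p = 0.000853, 0.0229 and 0.0203). Of 15 other lysosomal genes 4 were lower, with the largest changes in Ctsc at -0.86, the membrane protein Lamp2 at -0.30 and cathepsin H (Ctsh) at -0.26 (adjusted p = 0.00123, 0.0385 and 0.0469). Of 30 other macrophage genes 2 were lower, the oxidase subunit Ncf4 at -0.80 and Alox5ap at -0.57 (adjusted p = 0.0279 and 0.0242). Ebf1 of the B cell list was lower by -0.47, and Flt3, Cnp and the neurofilament Nefl were higher by 0.34, 0.25 and 0.16 (adjusted p = 0.0341, 0.0207, 0.00276 and 0.0383). In this order they were the only calls among 3 tested B cell, 2 dendritic cell, 7 Schwann cell and 10 neuronal genes. The medians of these lists were -0.003, 0.255, 0.25 and 0.07. With sex as a term Ccl12, Ctsc and Cnp were called and the others named here were not, and the same 3 genes kept their calls without each array in turn. As the mean over probe sets Ctsc was -0.32 (adjusted p = 0.0619). Control probe sets for 18S ribosomal RNA also differed between these times. The probe set for its middle part lay between 11.53 and 11.85 immediately, between 11.35 and 11.40 at 1 day and between 10.28 and 10.68 at 7 days. For its 5′ part the arrays lay between 12.49 and 12.69 immediately, between 11.97 and 12.06 at 1 day and at 11.49 or lower at 7 days. The 1-day arrays lay within the range of the controls in both, 11.31 to 11.91 and 11.82 to 12.37. The part of this difference in the change of the 39 genes was not tested.

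**Figure D4:**
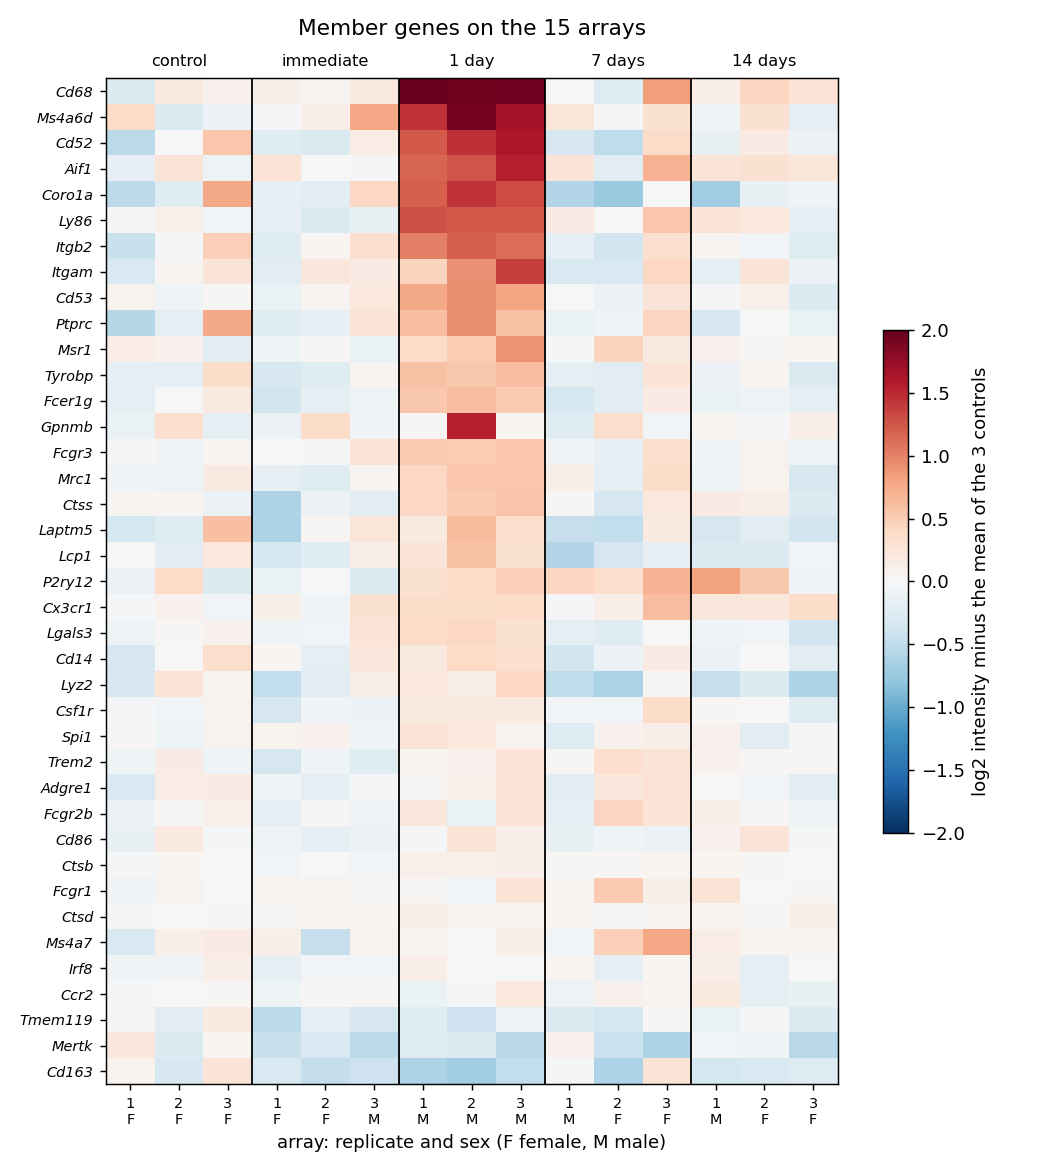
Log2 intensity of the 39 genes on each of the 15 arrays minus the mean of the 3 controls, with genes ordered by their change at 1 day; numbers below give the replicate and F or M the sex. The 1-day arrays form the red block at the top, led by Cd68 at 1.93 to 1.98, and 7-day replicate 3 is above the control mean in many genes.

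At 7 days 0 of the 37 genes were called against controls, where 0.0220% of all genes were, and at 14 days 0 were called, where 0% of all genes were. At an unadjusted threshold of 0.05, 1 gene was higher and 1 lower at each time. How many of all genes passed this threshold was not counted, so these counts have no reference. The median over the 37 genes was 0.03 at 7 days, against 0.01 over all genes, and -0.04 at 14 days, against 0.02. P2ry12 was the higher gene at both times, with 6.36, 6.28 and 6.63 at 7 days and 6.74, 6.47 and 5.86 at 14 days, against 5.81, 6.33 and 5.65 in controls. Its differences were 0.49 ± 0.20 (adjusted p = 0.382) and 0.43 ± 0.20 (adjusted p = 0.636), and the groups overlapped. The lower genes were Lcp1 at 7 days (-0.36 ± 0.15, adjusted p = 0.388) and Lyz2 at 14 days (-0.45 ± 0.19, adjusted p = 0.588). Cx3cr1 had 6.59, 6.60 and 6.74 at 14 days, against 6.34, 6.46 and 6.32 in controls, and was the 1 gene of the 37 whose 14-day arrays lay above all controls, against 8.77% of all genes (adjusted p = 0.655). Between 7 and 14 days 0 genes were called, where 0% of all genes were, and the median was -0.06, against 0.01 over all genes. Over all 5 groups, the moderated F test called 16 of the 37 genes, Ms4a6d among them, against 6.75% of all genes. With 3 animals a group, a p that misses the threshold does not show that a gene was unchanged.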

How the data were processed

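RNA of 15 mice was hybridised to 15 Affymetrix arrays, 50 ng of total RNA each per the labels' protocols. The deposited values were log2 intensities per probe set. Affymetrix Expression Console, RMA and MAS5 are named per the submitters' processing notes; the sources used here do not say which of them gave the values. Of 45101 probe sets, 34945 had 1 gene in the platform annotation, 932 several and 9160 none, and 64 were controls; 34741 gene IDs matched the RefSeq table of GRCm38.p6. The 39 genes and the other lists were chosen with earlier results of these data known. Each gene took its probe set with the highest mean, genes in the lowest 25% were left out, and the rest went into limma 3.58.1 under R 4.3.3 (group means over all 15 arrays, eBayes with trend, 10 residual degrees of freedom), two-sided, with Benjamini-Hochberg adjustment within each of 7 contrasts and calls at 0.05; the fit was tested on simulated data. At most 3.67% of values were identical between any pair of arrays. P-values set differences between groups against a spread between animals, pooled over the 5 groups and moderated over genes. In the fit without sex they cannot separate sex from time at 1 day against controls. Array number limits precision. Values by array are given for genes called in any contrast and for Csf1r, Cx3cr1, P2ry12, Tmem119, Ccr2, Cd163, Mrc1, Csf1, Il34, Cx3cl1 and Ccl2; Itgam, Ptprc and Gpnmb were added after their values were seen. From each other list up to 3 of the largest called changes per contrast are named. Alternatives were sex as a term, female arrays alone, other filters, probe set averaging, eBayes without trend, weights for arrays, a block for replicate number, a fit of the compared groups alone, quantile or 75th percentile scaling and each array left out. Same-numbered arrays of different groups had a mean correlation of deviations of 0.0517 (lowest -0.331), so the numbers were not taken as pairs.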

Additional observations from a re-analysis of the deposited data

Results flagged for a closer look

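The genes below differed between consecutive times after noise, by limma's contrast of the times over 13644 genes. Values are log2 fold changes, the later time minus the earlier. At 1 day against the immediate time, the surface molecules Cd52 at 1.56, Ms4a6d at 1.38, Itgb2 at 1.07, Cd53 at 0.78 and Csf1r at 0.36 were higher. The receptor partner Ly86 at 1.44, the adaptors Fcer1g at 0.78 and Tyrobp at 0.75, and the IgG receptor Fcgr3 at 0.45 were higher as well. So were the lysosomal genes Cd68 at 1.83, Ctss at 0.82 and Ctsb at 0.14, the scavenger receptors Msr1 at 0.66 and Mrc1 at 0.63, and the cytoskeletal genes Coro1a at 1.31, Aif1 at 1.25 and Lcp1 at 0.53.

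At 7 days against 1 day, the cytoskeletal genes Coro1a at -1.77, Aif1 at -1.08 and Lcp1 at -0.75 were lower. The lysosomal genes Cd68 at -1.75, Lyz2 at -0.63 and Ctss at -0.54 were lower too, as were the surface molecules Cd52 at -1.59, Ms4a6d at -1.51, Itgb2 at -1.19 and Cd53 at -0.78. Ly86 at -1.01, Fcer1g at -0.70, Tyrobp at -0.63, Lgals3 at -0.51 and Fcgr3 at -0.49 complete the list. These comparisons share the 1-day arrays, which were all male.

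Probe sets that did not represent their gene also differed between 1 day and controls, in the same fit over all probe sets. The dimmer probe set of Fcgr1 gave 1.08, and another of Coro1a gave 1.00. For Msr1, further probe sets gave 1.00 and 1.32.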

How the results depend on the processing

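The count of member genes called at 1 day against controls was 11. It was 4 with sex as a term, 3 with the lowest 50% of genes left out, which removes dim members from the test, and 6 to 15 with each array left out. At 1 day against the immediate time 17 were called, 8 with the lowest 50% left out and 11 to 18 with each array left out. At 7 days against 1 day 15 were called, 7 with the lowest 50% left out and 10 to 16 with each array left out. The median over the members with each array left out was 0.31 to 0.48 at 1 day against the immediate time, lowest without immediate replicate 1, and -0.54 to -0.39 at 7 days against 1 day, lowest without 7-day replicate 3. No member was called in the other contrasts under any alternative run, and females alone give no value for 1 day. With the replicate number as a block, 13, 18 and 15 members were called in the 3 contrasts with calls, and the median at 1 day against controls was 0.39. Of the alternatives chosen after the data were seen, males alone gave 12 calls and a median of 0.49, and leaving out control replicate 3 and 7-day replicate 3 gave 13 calls and 0.44. Ccr2 at 1 day against controls, at 0.01, was -0.067 with sex as a term and -0.03 among males alone, and lay between -0.087 (without 1-day replicate 3) and 0.088 (without 1-day replicate 1) with each array left out, and Csf1, at -0.05, was 0.024 as the mean over probe sets; none of these passed the test. Of 2622 gene values under alternatives, 362 lost a call and 23 gained one. Over all genes, calls at 1 day against controls numbered 434, with 75 under sex as a term, 1106 at the highest, and 112 to 582 with each array left out; the causes were not tested. Immediately against controls they numbered 127 (8 to 757), at 1 day against immediate 1145 (652 to 1898, and 382 to 1311 with each array left out), at 7 days against 1 day 1276 (200 to 1809) and at 7 days against controls 3 (1 to 16).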
